A study of Chrysanthemum x morifolium with 40 samples.

Results

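L-lactate dehydrogenase, alanine aminotransferase, glutamate decarboxylase and gamma aminobutyrate (GABA) transaminase handle pyruvate and glutamate when oxygen is short, and their genes were followed in flooded chrysanthemum roots. Members were taken by name, as the genes whose Swiss-Prot protein name in the deposited annotation held one of these 4 enzyme names. The rule found 52 of the 178540 genes in the table, which were 6 L-lactate dehydrogenase (LDH), 22 alanine aminotransferase (AlaAT), 17 glutamate decarboxylase (GAD) and 7 GABA transaminase (GABA-T) genes. Of these, 27 passed the filter on low values, an FPKM (fragments scaled by gene length and library size) of at least 1 in at least 4 libraries. The 27 were 6 LDH, 10 AlaAT, 5 GAD and 6 GABA-T genes. Of the other 25, 12 had no fragment in any library and none had more than 120 fragments over the 40 libraries. The names come from the closest Swiss-Prot entry and not from an enzyme assay.

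RNA was sequenced from roots of Chrysanthemum × morifolium seedlings aged 8 weeks that had been submerged, leaves included, as the waterlogging treatment. CK is 'zaoxiaoyangju', the conventional and waterlogging-sensitive cultivar, and EWT (Enhanced Waterlogging Tolerance) is the tolerant cultivar. The 10 groups, of 4 libraries each, are both cultivars before flooding (0 h), after 3 h, 12 h or 24 h under water, and at 24_3 h, when plants flooded for 24 h had been back in air for 3 h. Because 0 h is the sole unflooded stage, an effect of waterlogging and one of the time since the start cannot be told apart in any change from 0 h. At 3 h, 12 h and 24_3 h this includes the time of day, whereas the 24 h stage fell a whole day after 0 h. No plants were kept under water for 3 h past 24 h. From 24 h to 24_3 h, an effect of reoxygenation and one of the 3 h that passed thus cannot be told apart. Each cultivar is 1 line, so a difference between CK and EWT cannot be told apart from any other difference between these 2 lines. The libraries held between 3517588 and 9929777 fragments on genes, 6292021 at the median, and the correlation between libraries of a group ranged from 0.84 to 0.93. A difference was called when the adjusted p of limma's moderated test was at most 0.05 over all 89517 tested genes and the fold change was at least 2. Log2 changes are on the log2(FPKM + 0.1) scale and are given with their standard error, whereas means are given in FPKM with the SD over 4 libraries.

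Root and leaf markers were compared with the label of root tissue. The 30 genes named Casparian strip membrane protein, which build the barrier of the root endodermis, summed to a median of 69.3 FPKM in CK and 62.8 FPKM in EWT at 0 h. This sum was 48.7 and 56.1 FPKM at 3 h, where the EWT libraries overlapped those at 0 h, 10.4 and 5.96 FPKM at 12 h and 3.65 and 3.78 FPKM at 24_3 h. The 61 genes named phosphate transporter 1, also counted as root markers, moved otherwise, with medians of 68.4, 118, 82.9 and 91.3 FPKM in CK and 116, 226, 100.3 and 103 FPKM in EWT at 0, 3, 12 and 24 h. Of the 61, 8 are named putative glycerol-3-phosphate transporter 1, which the name search also took in. All 115 genes of the 4 root lists, which add dirigent protein 10 and nitrate transporter 2.1, summed to 220 to 271 FPKM in CK and 271 to 388 FPKM in EWT at 0 h, to 208 to 302 and 352 to 612 FPKM at 3 h, and to 88.9 to 129 and 121 to 152 FPKM at 12 h. In the full sum 37 genes were at 0 in CK at 0 h and 58 at 12 h. The 234 genes of 4 leaf lists (chlorophyll a-b binding protein, RuBisCO small chain, photosystem I and photosystem II or oxygen-evolving enhancer) summed to 55.8 to 170 FPKM in the CK libraries at 0 h and 64.7 to 101 FPKM in EWT. At 12 h they summed to 131 to 230.0 FPKM in CK and 269 to 330 FPKM in EWT, and 98 of the 234 genes were at 0 in CK at 0 h. CK 24 h replicate 4 had the highest leaf sum of any library, 617 FPKM. The part of a changed mixture of cells in the results was not tested, and in bulk RNA fewer cells of a type and less RNA per cell cannot be told apart.

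Under low oxygen, glycolysis runs on while the respiratory chain slows, and pyruvate and NADH build up. LDH reduces pyruvate to lactate and regenerates NAD+, whereas AlaAT moves an amino group between glutamate and pyruvate and stores carbon and nitrogen as alanine. The GABA shunt starts with GAD, which removes a carboxyl group from glutamate to give GABA and consumes a proton. Plant GAD is activated by calcium and calmodulin. GABA-T passes the amino group of GABA to pyruvate or glyoxylate and gives succinic semialdehyde, so it also forms alanine when pyruvate is the acceptor. Lactate, alanine and GABA are known to accumulate in flooded roots of many plants.

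Summed over all libraries, 3 copies carried most of the signal in each of the 4 classes, each set of 3 on consecutively numbered chromosomes. Copies are named below by enzyme and chromosome, and coordinates are those of the deposited table, for which the sources used here name no genome build. LDH-c22 is evm_TU_scaffold_183_42 (chromosome 22, 174589114 to 174591410), LDH-c23 is evm_TU_scaffold_891_231 (chromosome 23, 175160696 to 175162700) and LDH-c24 is evm_TU_scaffold_891_273 (chromosome 24, 173485769 to 173488051), all on the minus strand. The other LDH genes, LDH-c25, LDH-c26 and LDH-c27, are evm_TU_scaffold_1644_212, evm_TU_scaffold_11771_380 and evm_TU_scaffold_647_82 on chromosomes 25, 26 and 27. AlaAT-c1 is evm_TU_scaffold_499_95 (chromosome 1, 82291196 to 82295908), AlaAT-c2 is evm_TU_scaffold_1081_229 (chromosome 2, 65598432 to 65603024) and AlaAT-c3 is evm_TU_scaffold_400_13 (chromosome 3, 74854225 to 74859680), all on the plus strand. GAD-c7, GAD-c8 and GAD-c9 are evm_TU_scaffold_11180_146, evm_TU_scaffold_952_360 and evm_TU_scaffold_225_644 on the minus strand of chromosomes 7, 8 and 9. GABA-T1-c7, GABA-T1-c8 and GABA-T1-c9 are evm_TU_scaffold_493_284, evm_TU_scaffold_86_149 and evm_TU_scaffold_9411_37, also on the minus strand of chromosomes 7, 8 and 9. The 3 highest copies held 95.3% of the summed LDH FPKM over all libraries, 93.2% for AlaAT, 99.0% for GAD and 85.6% for GABA-T. In the lowest single library these shares were 78.9%, 88.5%, 95.9% and 28.8%. The sources used here do not say how fragments that match several copies were counted, so the values of single copies are less certain than those of a set.

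To follow the lactate branch, each LDH gene was compared with its level at 0 h. All 6 genes named L-lactate dehydrogenase A rose at every later time in both cultivars, and summed LDH expression went from 38.2 ± 2.04 to 673 ± 146 FPKM (SD, n = 4) in CK and from 37.1 ± 7.51 to 533 ± 22.6 FPKM in EWT within 3 h. Among all tested genes, 11.3%, 18.4%, 20.4% and 10.2% were called higher in CK and 8.96%, 20.2%, 19.3% and 9.13% in EWT, in order of time from 3 h on. The median log2 change of the 6 genes at 12 h was 5.02 in CK and 3.59 in EWT, or 5.02 and 3.89 with genes at 0 at their bound, against medians of -0.17 and -0.12 over all tested genes. LDH-c25, LDH-c26 and LDH-c27 reached 1 FPKM only at 3 h or later. They passed the filter through the stages where they were high, and could hardly be called lower than at 0 h. No library at 3 h or later overlapped with the 0 h libraries for any of the 6 genes in either cultivar. The share of all tested genes without such overlap was not counted, so this is given as a description.

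LDH-c22 stood at 12.9, 14.7, 14.7 and 14.5 FPKM in the CK libraries at 0 h and at 355, 347, 379 and 226 FPKM at 3 h. In EWT it stood at 11.8, 13.9, 13.4 and 7.82 FPKM at 0 h and at 161, 157, 196 and 184 FPKM at 3 h. The rise was of 4.49 ± 0.19 on the log2 scale (adjusted p = 2.4e-20) in CK and of 3.91 ± 0.19 on the log2 scale (adjusted p = 1.6e-18) in EWT. LDH-c23 rose from 14.7 ± 1.98 to 255 ± 53.5 FPKM in CK and from 21.4 ± 4.08 to 281 ± 12.4 FPKM in EWT, log2 changes of 4.09 ± 0.17 and 3.73 ± 0.17. LDH-c24 began lower in EWT, at 5.23, 4.42, 3.34 and 2.70 FPKM against 8.46, 8.95, 8.68 and 10.3 FPKM in CK, and no EWT library reached the lowest CK library. By 3 h the 2 cultivars overlapped, at 65.8, 73.3, 67.6 and 67.9 FPKM in EWT and 84.1, 74.8, 81.3 and 49.9 FPKM in CK. The change from 0 h to 3 h was thus larger in EWT, by 1.18 ± 0.27 on the log2 scale (adjusted p = 0.0058).

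**Figure D1:**
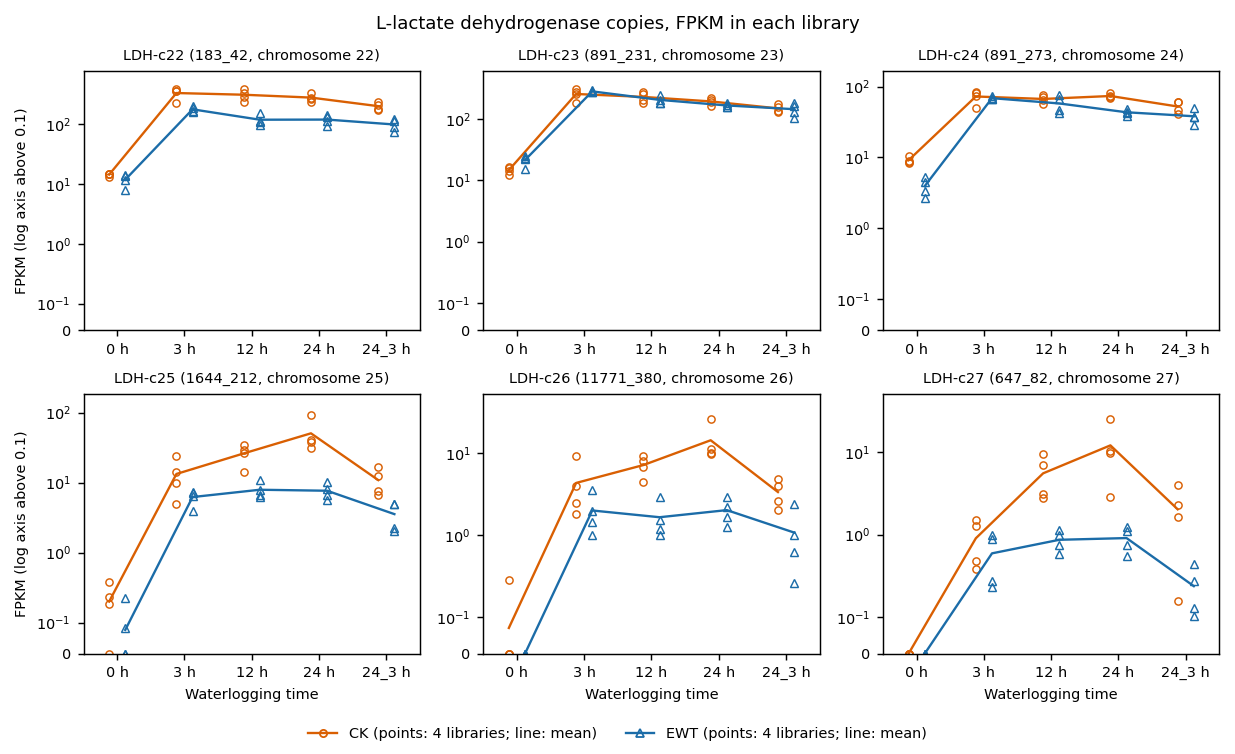
FPKM of the 6 LDH copies in each library (points, 4 per group) with the group mean (line), against waterlogging time, for CK (circles) and EWT (triangles). The vertical axis is logarithmic above 0.1 FPKM and linear below it. All copies stand above their 0 h level from 3 h on. The 3 copies of the lower row are at or near 0 at 0 h, and their CK points lie above their EWT points at 12 h and 24 h.

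The copies on chromosomes 25, 26 and 27 were nearly silent before flooding. LDH-c25 was at 0.229, 0, 0.381 and 0.187 FPKM in CK and 0, 0.224, 0.0814 and 0 FPKM in EWT at 0 h. It reached 26.6, 34.7, 14.2 and 29.1 FPKM in CK and 6.22, 7.96, 10.9 and 6.55 FPKM in EWT at 12 h, rises of 6.59 ± 0.46 and 5.65 ± 0.46 on the log2 scale. On this scale it was the largest LDH rise at 12 h in both cultivars, while LDH-c26 and LDH-c27 have limits or wide intervals in place of a fold. LDH-c27 had no fragment in any library at 0 h, and against the limit of 3 fragments over the group it was at least 67.7-fold higher in CK and at least 15.2-fold higher in EWT at 12 h. LDH-c26 had no fragment in EWT at 0 h and was at least 28.8-fold higher there at 12 h. In CK it had 3 fragments at 0 h, a ratio at 12 h of 86.0 with a 95% counting interval from 28.8 to 422. Counting intervals and limits cover counting error only. With a pseudocount of 1 in place of 0.1, the EWT rise of LDH-c27 no longer passed at any time (log2 0.64, 0.89, 0.92 and 0.30), its CK rise did not pass at 3 h (log2 0.88, adjusted p = 0.063) and the EWT rise of LDH-c26 no longer passed at 24_3 h (log2 0.95). The EWT rise of LDH-c27 at 24_3 h, from 10 fragments, was also lost without any one of 7 of the 8 libraries, with adjusted p from 0.052 to 0.15.

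From 12 h on, 4 of the 6 LDH genes were called lower in EWT than in CK. They were lower in EWT at each of the 12 h, 24 h and 24_3 h stages, whereas 16.6%, 17.4% and 13.3% of all tested genes were. LDH-c27 reached 1 FPKM in 13 CK libraries and 3 EWT libraries, so it passed the filter through CK, where it was higher. At 0 h LDH-c24 was the only LDH gene called, when 13.6% of all tested genes were called lower, and at 3 h, when 15.8% were, limma called 0 of 6 with 1 at an unadjusted p under 0.05. LDH-c22 was at 323, 386, 284 and 231 FPKM in CK and at 109, 97.0, 149.6 and 113 FPKM in EWT at 12 h, so that every CK library lay above every EWT library. The difference was -1.38 ± 0.19 on the log2 scale (adjusted p = 1.8e-07). LDH-c23 showed no such gap, with 228 ± 44.7 FPKM in CK and 204 ± 30.2 FPKM in EWT, a difference of -0.15 ± 0.17 whose 95% interval ran from -0.50 to 0.20. LDH-c25 differed by -1.67 ± 0.46 at 12 h and -2.61 ± 0.46 at 24 h, LDH-c26 by -2.11 ± 0.51 and -2.70 ± 0.51, and LDH-c27 by -2.40 ± 0.61 and -3.28 ± 0.61. With a pseudocount of 0.01 the LDH-c25 difference did not pass at 12 h (adjusted p = 0.09) or 24_3 h (adjusted p = 0.12). At 24_3 h the EWT deficit of LDH-c22 was -1.03 ± 0.19, and it stood between -0.89 and -0.995, under the 2-fold minimum, without CK replicate 1 or 2 or EWT replicate 1 or 2.

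Whether the response itself differed was tested as the EWT change minus the CK change from 0 h. Over all tested genes such a difference was called in either direction for 5.05% at 3 h, 10.8% at 12 h and 12.0% at 24 h. For LDH it was called for LDH-c24 at 3 h (given above), for LDH-c22 at 12 h and for LDH-c26 and LDH-c27 at 24 h. LDH-c22 rose by 1.07 ± 0.27 less in EWT on the log2 scale (adjusted p = 0.0062), and by 0.95 to 0.99 less, under the 2-fold minimum, without EWT 0 h replicate 2 or 3, CK 12 h replicate 2 or EWT 12 h replicate 2. LDH-c27 rose by 3.28 ± 0.87 less (adjusted p = 0.0091), which, with no fragment at 0 h, is the level difference at 24 h given above and no separate test. LDH-c26 rose by 2.22 ± 0.72 less (adjusted p = 0.038), a call that was lost without any one of 10 of the 16 libraries, with values from -1.88 to -2.22 and adjusted p from 0.055 to 0.097. CK 24 h replicate 3 was the highest library for all of LDH-c25, LDH-c26 and LDH-c27, at 92.5, 26.1 and 25.5 FPKM. With vooma weights in place of equal weights, neither LDH-c26 (adjusted p = 0.22) nor LDH-c27 (adjusted p = 0.14) passed in this contrast.

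After 3 h of reoxygenation LDH expression remained far above 0 h. In CK, 3 of the 6 genes fell from 24 h to 24_3 h, and 1 of 6 fell in EWT, where 13.3% and 11.7% of all tested genes were called lower. The 3 that fell in CK were LDH-c25, by 2.17 ± 0.46, LDH-c26, by 2.01 ± 0.51, and LDH-c27, by 2.70 ± 0.61 on the log2 scale. These 3 copies passed the filter through stages from 3 h on, where they were high, which may have favoured a fall from 24 h. CK 24 h replicate 3 was the highest library for each. LDH-c25 stood at 12.6, 16.7, 6.75 and 7.48 FPKM at 24_3 h in CK. The more abundant copies changed less, LDH-c22 by -0.48 ± 0.19 and LDH-c23 by -0.38 ± 0.17 in CK, below the 2-fold minimum, and with library sizes from all fragments the LDH-c23 value was 0.093. In EWT the fall of LDH-c27 was -1.64 ± 0.61, lost without EWT 24 h replicate 1, 3 or 4 or EWT 24_3 h replicate 1, 2 or 3, with values from -1.43 to -1.72. For the cultivar difference in this step limma called 0 of the 27 members, against 4.03% of all tested genes, and 3 members had an unadjusted p under 0.05.

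The alanine branch also rose, by less. Of the 10 tested AlaAT genes, 7, 7, 8 and 5 were called higher in CK, against 11.3%, 18.4%, 20.4% and 10.2% of all tested genes, in the same order of times. In EWT 6, 7, 7 and 6 were, against 8.96%, 20.2%, 19.3% and 9.13%. The EWT counts at 12 h and 24 h include a low copy on chromosome 7 with no fragment at 0 h. It passed the filter through 4 flooded EWT libraries alone and could not be called lower than at 0 h. One gene, a low copy on chromosome 26, was called lower, in CK at 12 h. Their median log2 change at 12 h was 1.46 in CK and 1.70 in EWT, or 1.76 and 1.70 with genes at 0 at their bound. Summed AlaAT expression went from 140.3 ± 10.1 to 597 ± 52.4 FPKM in CK and from 98.9 ± 17.3 to 479 ± 117 FPKM in EWT at 24 h. At 24_3 h it was 383 ± 48.6 and 314 ± 82.6 FPKM. All 3 main copies carry the name alanine aminotransferase 2, mitochondrial, after an Arabidopsis protein.

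AlaAT-c2, the most abundant copy, was at 93.9, 101, 87.4 and 104 FPKM in CK at 0 h and at 336, 333, 351 and 278 FPKM at 24 h. In EWT it was at 24.2, 20.4, 22.2 and 16.5 FPKM at 0 h and at 119, 149.7, 103 and 111 FPKM at 24 h. It thus rose by 1.74 ± 0.14 on the log2 scale (adjusted p = 4.1e-13) in CK and by 2.53 ± 0.14 on the log2 scale (adjusted p = 2.3e-17) in EWT, and the highest EWT library at 24 h lay below every flooded CK library. AlaAT-c1 rose from 26.0 ± 3.79 to 161 ± 11.9 FPKM in CK (2.63 ± 0.20 on the log2 scale) and from 56.7 ± 11.0 to 265 ± 75.9 FPKM in EWT (2.20 ± 0.20). AlaAT-c3 rose from 4.72, 5.36, 4.25 and 6.05 FPKM in CK at 0 h to 67.8, 61.6, 70.2 and 53.2 FPKM at 24 h, the largest AlaAT rise in CK at 3.61 ± 0.20. In EWT it rose from 16.6, 16.2, 15.5 and 11.8 FPKM to 69.2, 88.9, 46.8 and 62.8 FPKM, or by 2.12 ± 0.20. All 3 copies were still called higher at 24_3 h than at 0 h in both cultivars.

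**Figure D2:**
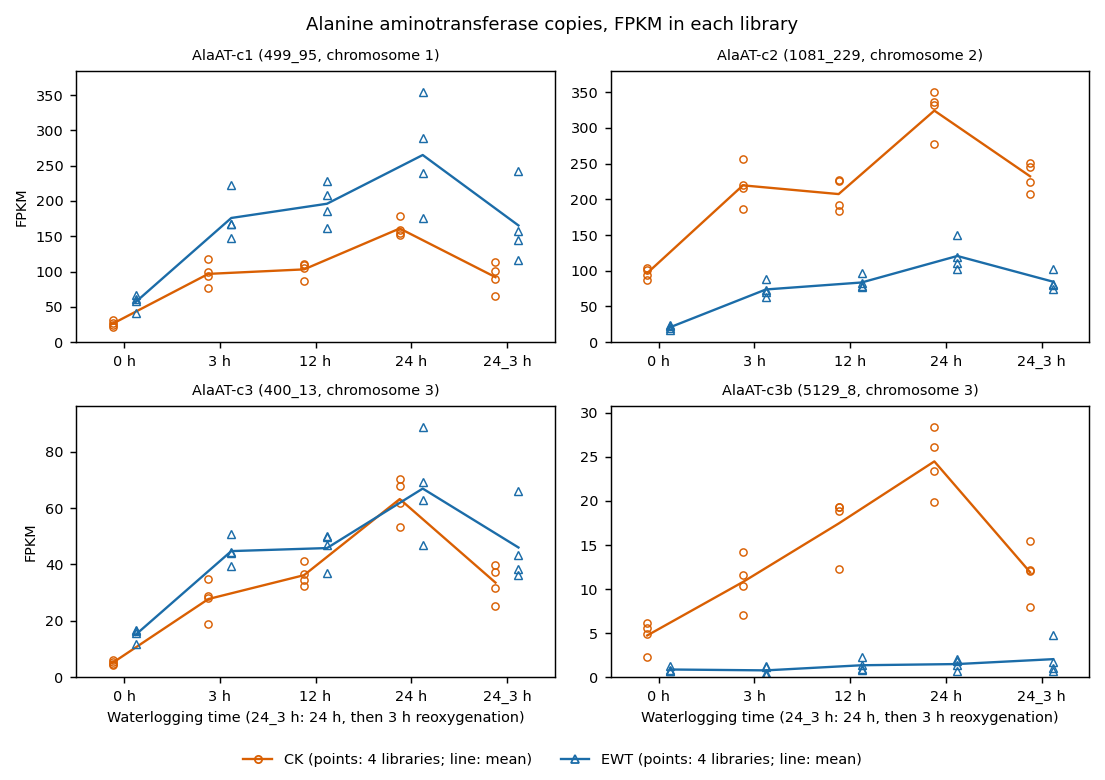
FPKM of 4 AlaAT copies in each library (points, 4 per group) with the group mean (line), against waterlogging time, for CK (circles) and EWT (triangles), on linear axes from 0. AlaAT-c2 lies higher in CK at every time, the AlaAT-c1 mean is higher in EWT at every time, with overlapping libraries at 24 h, and AlaAT-c3b rises in CK while it stays under 5 FPKM in EWT.

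The cultivars differed in which AlaAT copy was the most abundant, AlaAT-c2 in CK and AlaAT-c1 in EWT. At 0 h, 4 of the 10 genes were lower and 2 higher in EWT, when 13.6% of all tested genes were lower and 16.4% higher. The 4 include the low copy on chromosome 26, which passed the filter through CK libraries alone, where it was higher. AlaAT-c2 was lower in EWT by 2.22 ± 0.14 on the log2 scale (adjusted p = 1.7e-15) and stayed lower at every time, by 1.31 to 1.57 from 3 h on. AlaAT-c1 was higher in EWT at 0 h by 1.11 ± 0.20 and AlaAT-c3 by 1.54 ± 0.20. By 24 h AlaAT-c3 no longer differed detectably, with 63.2 ± 7.61 FPKM in CK and 66.9 ± 17.4 FPKM in EWT, a log2 difference of 0.05 ± 0.20 (95% interval -0.34 to 0.45). The change of AlaAT-c3 from 0 h was smaller in EWT by 1.21 ± 0.28 at 12 h (adjusted p = 0.0027) and by 1.49 ± 0.28 at 24 h (adjusted p = 2.3e-04).

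AlaAT-c3b, evm_TU_scaffold_5129_8 on the plus strand of chromosome 3 (58103052 to 58114059), was expressed mainly in CK. It was at 4.88, 6.16, 5.59 and 2.31 FPKM in CK at 0 h and at 28.4, 23.4, 26.2 and 19.9 FPKM at 24 h, a rise of 2.42 ± 0.43 on the log2 scale (adjusted p = 1.1e-05). In EWT it was at 0.682, 0.718, 1.23 and 0.858 FPKM at 0 h and at 2.01, 0.754, 1.33 and 1.87 FPKM at 24 h, a change of 0.66 ± 0.43 that was not called. The cultivar difference in the change was -1.76 ± 0.61 and missed the threshold (adjusted p = 0.051), so the rise is not shown to differ, whereas EWT was lower than CK at all 5 times by 2.26 to 4.02 on the log2 scale. Its smaller rises in CK rest on single libraries. The call at 3 h (1.22 ± 0.43) was lost without CK 0 h replicate 4 (0.91) and without CK 3 h replicate 1, 2 or 4 (1.07 to 1.22), and that at 24_3 h (1.36 ± 0.43) without CK 0 h replicate 4 (1.06).

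Of the remaining 6 tested AlaAT genes, 3 were moderate, at means of 6.17, 3.86 and 3.70 FPKM over all libraries, and 3 were at under 1 FPKM. The highest of the moderate ones, evm_TU_scaffold_9515_4, rose by 1.96 ± 0.33 in CK and 2.32 ± 0.33 in EWT at 24 h. The next, evm_TU_scaffold_644_75 on chromosome 15, rose by 2.02 ± 0.41 and 1.88 ± 0.41, and evm_TU_scaffold_7753_227 on chromosome 27 by 1.48 ± 0.32 and 1.96 ± 0.32. Among the low ones, a gene on chromosome 26 (151641010 to 151645246) had no fragment in the 8 EWT libraries at 0 h and 3 h and stood at 1.09, 1.78, 1.66 and 1.0004 FPKM in CK at 0 h, at least 20.4-fold higher there. It reached 1 FPKM in 11 CK libraries and 0 EWT libraries, so it passed the filter through CK alone. Another, on chromosome 7 (204768995 to 204769440), had no fragment in any of the 20 CK libraries and reached 1.39, 0.696, 3.16 and 0.470 FPKM in EWT at 24 h. Its 24 h value was at least 6.58-fold above 0 h in EWT, and rested on 10 fragments. It passed the filter through 4 EWT libraries alone. Its rise at 12 h, from 4 fragments, was lost without any one EWT library at 0 h and without EWT 12 h replicate 1 (0.94) or 3 (1.51). The third, on chromosome 5 (163303762 to 163305944), rose in CK at 3 h from 0.0735, 0.342, 0.244 and 0 to 0.737, 1.49, 1.03 and 0.762 FPKM, by 2.23 ± 0.53 on the log2 scale. It reached 1 FPKM in 6 CK libraries and 3 EWT libraries, so it passed the filter through CK. Its change at 3 h in EWT was -0.26 ± 0.53, and the difference between the cultivars was -2.49 ± 0.74 on the log2 scale (adjusted p = 0.041). That call was lost without any one of 10 of the 16 libraries, with values from -2.10 to -2.60 and adjusted p from 0.051 to 0.12, and with a pseudocount of 1 (-0.88), which also took the CK rise at 3 h under 2-fold (0.78).

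GAD, the entry to the GABA shunt, moved the other way at first. At 3 h, 4 of the 5 tested GAD genes fell in CK and 2 of 5 in EWT, where 14.2% and 12.7% of all tested genes were called lower. Each count includes evm_TU_scaffold_1501_200, which passed the filter only with its CK libraries at 0 h, where it was highest. Summed GAD expression went from 327 ± 22.8 to 129.5 ± 31.9 FPKM in CK and from 155 ± 20.2 to 95.7 ± 15.5 FPKM in EWT. At 12 h the sums were 313 ± 83.6 and 176 ± 29.8 FPKM. In CK 1 GAD gene, again evm_TU_scaffold_1501_200, was called lower at 12 h, where 27.1% of all tested genes were. In EWT limma called 0 of 5 at 12 h, where 26.5% of all tested genes were called lower, with 1 at an unadjusted p under 0.05. The median log2 change of the 5 genes at 12 h was 0.04 in CK and -0.19 in EWT, or -0.05 in EWT with the gene at 0 at its bound. With library sizes from all fragments the CK median was -0.43.

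GAD-c8, the most abundant GAD copy (chromosome 8, 149045289 to 149054012), was at 209.7, 246, 222 and 236 FPKM in CK at 0 h and at 78.9, 113, 89.8 and 56.8 FPKM at 3 h, with no overlap. It fell by 1.47 ± 0.24 on the log2 scale (adjusted p = 9.9e-06). In EWT it was at 72.4, 69.2, 63.8 and 52.8 FPKM at 0 h and at 45.4, 53.2, 68.9 and 47.4 FPKM at 3 h, groups that overlapped, and the change of -0.27 ± 0.24 was not called. The difference between these changes was 1.20 ± 0.34 on the log2 scale (adjusted p = 0.032), and it was lost without any one of 8 of the 16 libraries, with values from 1.02 to 1.19 and adjusted p from 0.054 to 0.094. It was also lost with library sizes from all fragments (1.09) and with vooma weights (adjusted p = 0.0503). GAD-c9 fell in both cultivars at 3 h, by 1.14 ± 0.26 in CK and by 1.31 ± 0.26 in EWT, and the CK call was lost on the fold minimum without CK 3 h replicate 4 (-0.99). GAD-c7 fell by 1.08 ± 0.25 in CK and changed by -0.91 ± 0.25 in EWT, below the 2-fold minimum.

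**Figure D3:**
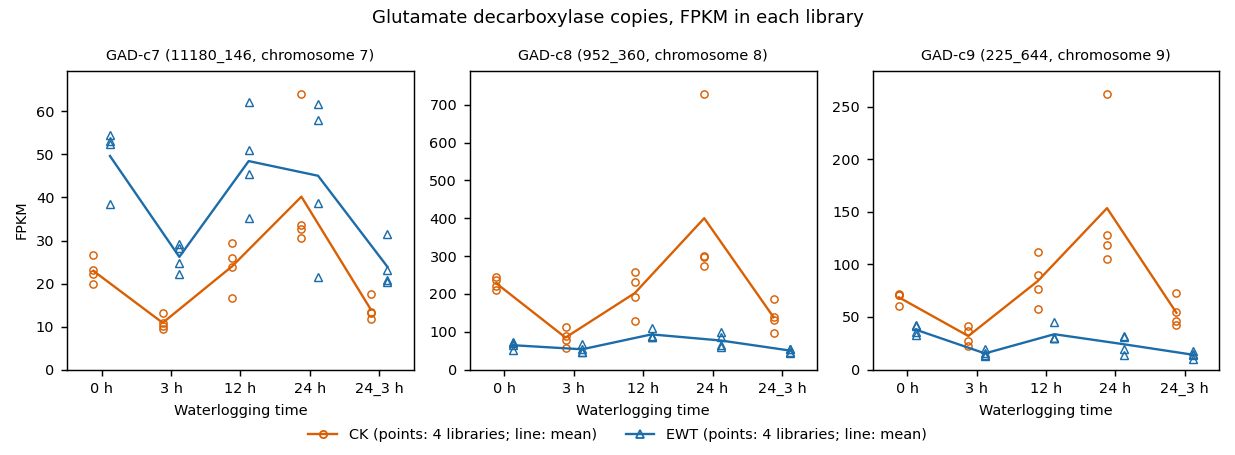
FPKM of the 3 main GAD copies in each library (points, 4 per group) with the group mean (line), against waterlogging time, for CK (circles) and EWT (triangles), on linear axes from 0. All 3 are lower at 3 h than at 0 h in CK. CK 24 h replicate 3 lies far above its group in all 3 panels, at 64.1, 729.6 and 262 FPKM.

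At 24 h, 1 CK library stood apart from the others in GAD level. GAD-c8 was at 274, 298, 729.6 and 299 FPKM, GAD-c9 at 105, 128, 262 and 118 FPKM and GAD-c7 at 33.5, 32.6, 64.1 and 30.5 FPKM, and replicate 3 lay above the other 3 for each. The call of GAD-c9 against 0 h (1.06 ± 0.26) was lost without that library (0.77). It was also lost with library sizes from all fragments (0.61). The leaf markers of that library summed to 311 FPKM, within the range of its group, and all 115 root marker genes to 109.8 FPKM, against 89.3 to 100.4 FPKM in the other 3. Without the phosphate transporter list the root sum was 4.66 FPKM, against 4.87 to 9.0 FPKM. The part of these in the GAD values was not tested. In EWT at 24 h, replicate 3 was instead the lowest library for all 3 copies, at 21.6, 58.5 and 13.6 FPKM for GAD-c7, GAD-c8 and GAD-c9.

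After reoxygenation all 3 main copies fell in CK, GAD-c7 by 1.46 ± 0.25, GAD-c8 by 1.44 ± 0.24 and GAD-c9 by 1.43 ± 0.26 on the log2 scale. In this step 13.3% of all tested genes in CK and 11.7% in EWT were called lower. GAD-c8 stood at 140.2, 188, 96.0 and 129.9 FPKM in CK at 24_3 h, below every CK library at 24 h. In EWT the corresponding changes were -0.82 ± 0.25, -0.59 ± 0.24 and -0.71 ± 0.26 and limma called 0 of 5, with 3 at an unadjusted p under 0.05. Against 0 h, 3 of the 5 GAD genes were called lower at 24_3 h in EWT and 1 of 5 in CK. Each count includes evm_TU_scaffold_1501_200, which passed the filter only with its CK libraries at 0 h. Over all tested genes 12.1% were called lower in EWT and 15.9% in CK. The genes lower in EWT included GAD-c7 (-1.06 ± 0.25, and -0.99 without EWT 24_3 h replicate 2) and GAD-c9 (-1.44 ± 0.26). With library sizes taken from all fragments, the 3 falls in CK were -0.99, -0.97 and -0.96 and missed the 2-fold minimum.

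The cultivars differed in GAD before and after flooding. GAD-c8 was lower in EWT by 1.83 ± 0.24 at 0 h (adjusted p = 1.5e-07), by 1.08 ± 0.24 at 12 h and by 2.28 ± 0.24 at 24 h. The 12 h difference was under 2-fold without CK 12 h replicate 1 (-0.999) or 4 (-0.95). GAD-c7 was higher in EWT at 0 h by 1.10 ± 0.25 and at 3 h by 1.26 ± 0.25. At 12 h its excess was 1.01 ± 0.25, which fell under 2-fold without CK 12 h replicate 3 or EWT 12 h replicate 3 or 4 (0.85 to 0.98). Over all tested genes 17.2% were called higher in EWT at 3 h and 21.6% at 12 h. GAD-c9 was lower in EWT by 2.65 ± 0.26 at 24 h, and its change from 0 h to 24 h was lower in EWT by 1.79 ± 0.37 (adjusted p = 7.9e-04). For GAD-c8 and GAD-c9 at 24 h, CK replicate 3 was the highest CK library and EWT replicate 3 the lowest EWT library, which adds to these differences. Every CK library lay above every EWT library for both copies at 24 h.

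A pair of GAD copies on chromosome 9 was expressed at under 1 FPKM on average. One, evm_TU_scaffold_1501_200, was at 1.52, 6.43, 1.53 and 2.03 FPKM in CK at 0 h and had 2 fragments in the 4 CK libraries at 12 h, a 22.4-fold lower level with a 95% counting interval from 6.03 to 188. It reached 1 FPKM in 6 CK libraries and 1 EWT library. It would not have passed the filter without CK at 0 h, so the filter favoured its falls from 0 h. The other, evm_TU_scaffold_1501_192, had no fragment in the 12 EWT libraries at 3 h, 12 h and 24 h and was at 1.26, 2.25, 0.743 and 0.611 FPKM in CK at 12 h, at least 12.7-fold higher. With a pseudocount of 1 its deficit in EWT was called at 12 h alone and was under 2-fold at 0 h (-0.54), 3 h (-0.95), 24 h (-0.99) and 24_3 h (-0.54). It reached 1 FPKM in 7 CK libraries and 0 EWT libraries, so it was tested only through the cultivar in which it was higher.

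GABA-T, the exit of the shunt toward succinate, split into rising and falling copies. The 3 main copies named GABA transaminase 1, mitochondrial, rose to a peak at 12 h and lay closer to their 0 h level at 24_3 h, whereas those named GABA transaminase 3, chloroplastic, fell steeply within 3 h. Summed over their copies, GABA-T1 went from 24.5 ± 4.45 FPKM at 0 h to 139 ± 10.4 at 12 h and 37.1 ± 7.84 at 24_3 h in CK (SD, n = 4), and from 25.8 ± 3.75 to 98.3 ± 6.08 and 23.7 ± 6.85 FPKM in EWT. GABA-T3 held 49.7% to 67.2% of all GABA-T FPKM in the CK libraries at 0 h and 55.5% to 70.6% in EWT, and at most 0.602% and 1.33% at 12 h. Of the 6 tested genes, 3 rose and 2 fell at 12 h in CK, and 4 rose and 2 fell in EWT. A gene that fell in both, on chromosome 18, reached 1 FPKM in 4 CK and 3 EWT libraries, all at 0 h. It passed the filter through the stage where it was high, and could hardly be called higher than at 0 h. Over all tested genes 18.4% were called higher and 27.1% lower in CK at 12 h, and 20.2% and 26.5% in EWT. At 24 h, when 28.6% of all tested genes in CK and 26.7% in EWT were called lower, 3 and 2 of 6 were.

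GABA-T1-c7 (chromosome 7, 126796189 to 126802336) was at 12.4, 14.1, 15.3 and 22.8 FPKM in CK at 0 h and at 93.6, 109, 91.8 and 109 FPKM at 12 h, a rise of 2.67 ± 0.23 on the log2 scale (adjusted p = 5.3e-12). In EWT it was at 11.2, 8.78, 6.81 and 9.37 FPKM at 0 h and at 26.3, 29.3, 32.3 and 29.5 FPKM at 12 h, a rise of 1.71 ± 0.23 on the log2 scale (adjusted p = 9.5e-08). GABA-T1-c8 (chromosome 8, 134702819 to 134708778) showed the opposite balance. It was at 7.59, 5.20, 7.08 and 9.94 FPKM in CK and 47.6, 47.6, 43.5 and 40.9 FPKM in EWT at 12 h, when every EWT library lay above every CK library. GABA-T1-c8 rose by 2.32 ± 0.24 in EWT and by 1.10 ± 0.24 in CK, where the rise was under 2-fold without CK 0 h replicate 3 (0.97) or CK 12 h replicate 4 (0.95) and with library sizes from all fragments (0.64). GABA-T1-c9 (chromosome 9, 132255527 to 132261151) rose from 4.47 ± 0.654 to 30.0 ± 2.51 FPKM in CK (2.72 ± 0.23 on the log2 scale) and from 7.36 ± 1.12 to 22.5 ± 4.14 FPKM in EWT (1.59 ± 0.23).

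The GABA-T1 copies responded unequally in the 2 cultivars. From 0 h to 12 h, GABA-T1-c8 rose more in EWT by 1.22 ± 0.33 on the log2 scale (adjusted p = 0.013), and GABA-T1-c9 rose less in EWT by 1.13 ± 0.33 (adjusted p = 0.02). From 0 h to 24 h, GABA-T1-c9 rose less in EWT by 1.29 ± 0.33 (adjusted p = 0.0068) and GABA-T1-c7 by 1.11 ± 0.33 (adjusted p = 0.019). The last value was under 2-fold when replicate 1 of CK or of EWT at 0 h, or EWT 24 h replicate 3, was left out (-0.987 to -0.999). GABA-T1-c8 was higher in EWT at all 5 times, by 1.39 to 2.61, and GABA-T1-c7 lower in EWT from 3 h on, by 1.62 to 1.93 on the log2 scale. Over all tested genes 21.5% were called higher in EWT at 24 h and 16.9% at 24_3 h. From 24 h to 24_3 h GABA-T1-c7 fell in CK by 1.07 ± 0.23, and was under 2-fold without CK 24 h replicate 1 or CK 24_3 h replicate 4 (-0.99 for each) and with library sizes from all fragments (-0.60).

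The GABA-T3 copy on chromosome 16, GABA-T3-c16 (evm_TU_scaffold_515_31, plus strand, 185683031 to 185687673), was the highest GABA-T gene at 0 h. It stood at 24.2, 21.2, 33.7 and 27.5 FPKM in CK and 40.5, 53.2, 48.4 and 36.7 FPKM in EWT. At 3 h it was at 0.852, 1.06, 0.460 and 0.238 FPKM in CK and 0.916, 1.21, 2.34 and 1.51 FPKM in EWT, log2 changes of -5.29 ± 0.68 and -4.87 ± 0.68. At 12 h its mean was 0.229 ± 0.355 FPKM in CK and 0.588 ± 0.519 FPKM in EWT, the largest falls among the 27 members (-6.92 and -6.51). Its partner on chromosome 18, GABA-T3-c18 (evm_TU_scaffold_asm16_new_6395), was at 7.49, 1.5, 12.5 and 3.25 FPKM in CK at 0 h and had no fragment in the 8 libraries of both cultivars at 24 h, at least 58.2-fold lower in CK and at least 33.9-fold lower in EWT. The third GABA-T3 gene, on chromosome 17, had no fragment in any library. Tomato GABA-T3 is the plastid member of the tomato family, in which GABA-T1 is mitochondrial.

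GABA-T1-c7b, evm_TU_scaffold_493_270 on chromosome 7, averaged under 1 FPKM. It rose at 12 h in EWT, by 1.68 ± 0.61, and had 2 fragments in the CK libraries at 24 h. It was called lower there than at 0 h (-1.49 ± 0.61), with overlapping libraries and a ratio of 4.11 whose 95% counting interval ran from 0.965 to 36.8. At 24 h it was higher in EWT than in CK by 2.44 ± 0.61. The EWT rise at 12 h was lost without replicate 1 at either time, or without replicate 2 of EWT at 0 h (1.38 to 1.49), and the lower call in CK without CK 0 h replicate 1 or 3 or CK 24 h replicate 2 or 4 (-1.14 to -1.50). With a pseudocount of 1 none of the 3 passed (0.80, -0.37 and 0.77).

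Part of GABA-T3 returned after reoxygenation. GABA-T3-c16 was at 5.56, 11.6, 3.25 and 2.62 FPKM in EWT at 24_3 h against 0.244, 0.489, 0.369 and 0.907 FPKM at 24 h, a rise of 3.16 ± 0.68 on the log2 scale (adjusted p = 5.5e-04) with no overlap. In CK it was at 0.591, 0.643, 1.26 and 4.14 FPKM against 0.588, 0.551, 0 and 0.258 FPKM, a change of 1.88 ± 0.68 on the log2 scale (adjusted p = 0.032) that was lost without CK 24 h replicate 3 (1.27) or 4 (1.88) or CK 24_3 h replicate 3 (1.86) or 4 (1.32). In these steps 14.1% of all tested genes in CK and 13.3% in EWT were called higher. The 2 changes were not shown to differ, with a difference of 1.28 ± 0.96 and an adjusted p of 0.54. The excess in EWT at 24_3 h (1.92 ± 0.68) was lost without CK replicate 1 or 2 or EWT replicate 1 or 2 (1.51 to 1.86). Both cultivars stayed far below 0 h, by 4.33 ± 0.68 in CK and 3.16 ± 0.68 in EWT.

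**Figure D4:**
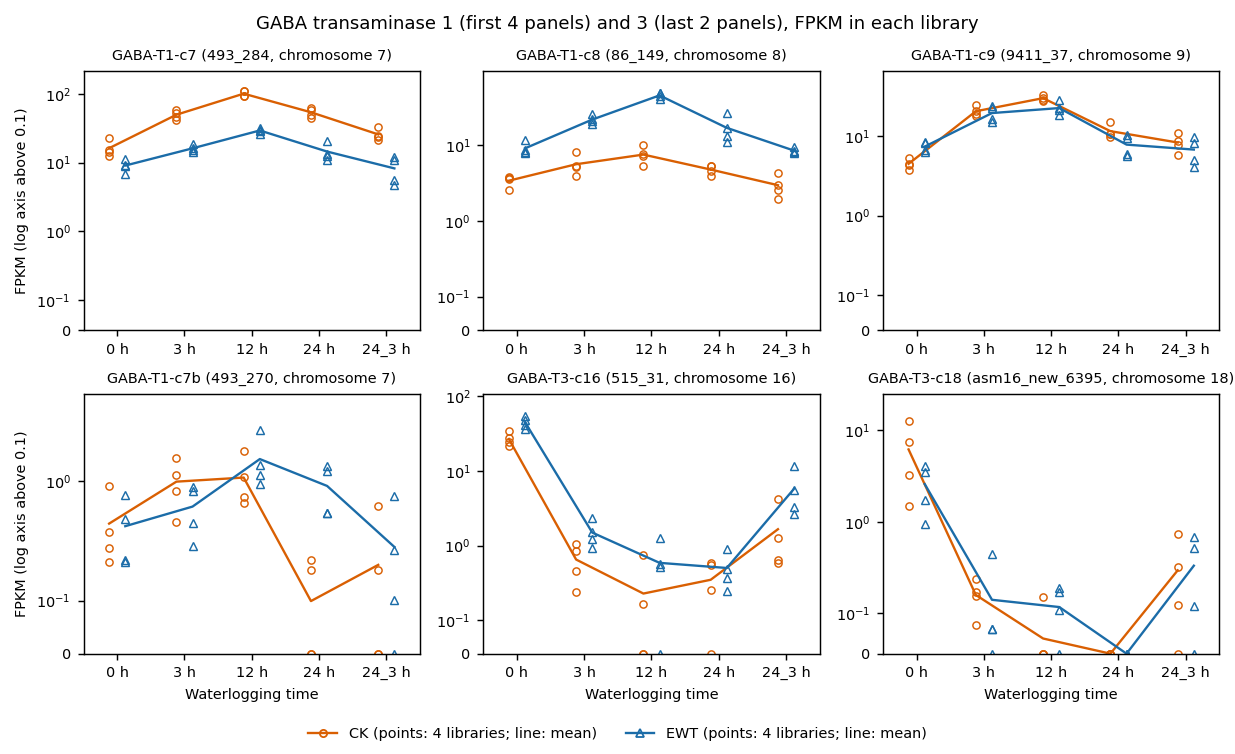
FPKM of the 6 tested GABA-T genes in each library (points, 4 per group) with the group mean (line), against waterlogging time, for CK (circles) and EWT (triangles). The vertical axis is logarithmic above 0.1 FPKM and linear below it. The 3 panels of the upper row peak at 12 h, and the 2 GABA-T3 panels at the lower right fall from their 0 h level to near 0.

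In each set of 3 main copies the balance among copies differed between the cultivars. AlaAT-c2 held 57.5% to 77.9% of its set's FPKM in the 20 CK libraries and 21.0% to 34.5% in the 20 EWT libraries, whereas AlaAT-c1 held 18.2% to 31.5% and 49.9% to 62.3%. Neither pair of ranges overlapped. GABA-T1-c7 held 58.0% to 79.6% of the GABA-T1 set in CK and 24.2% to 41.4% in EWT, and GABA-T1-c8 held 3.53% to 17.2% and 27.9% to 51.7%. GAD-c7 held 5.93% to 12.1% of the GAD set in CK and 22.2% to 35.4% in EWT. LDH-c23 held 32.8% to 41.0% of the LDH set in CK and 48.0% to 59.4% in EWT. Within CK, the share of LDH-c24 went from 24.0% ± 2.72 at 0 h to 11.1% ± 0.472 at 3 h and that of AlaAT-c3 from 3.97% ± 0.263 at 0 h to 11.5% ± 0.525 at 24 h (SD, n = 4). These shares are given as a description, since the copies were chosen for their level and how shared fragments were assigned is not known.

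**Figure D5:**
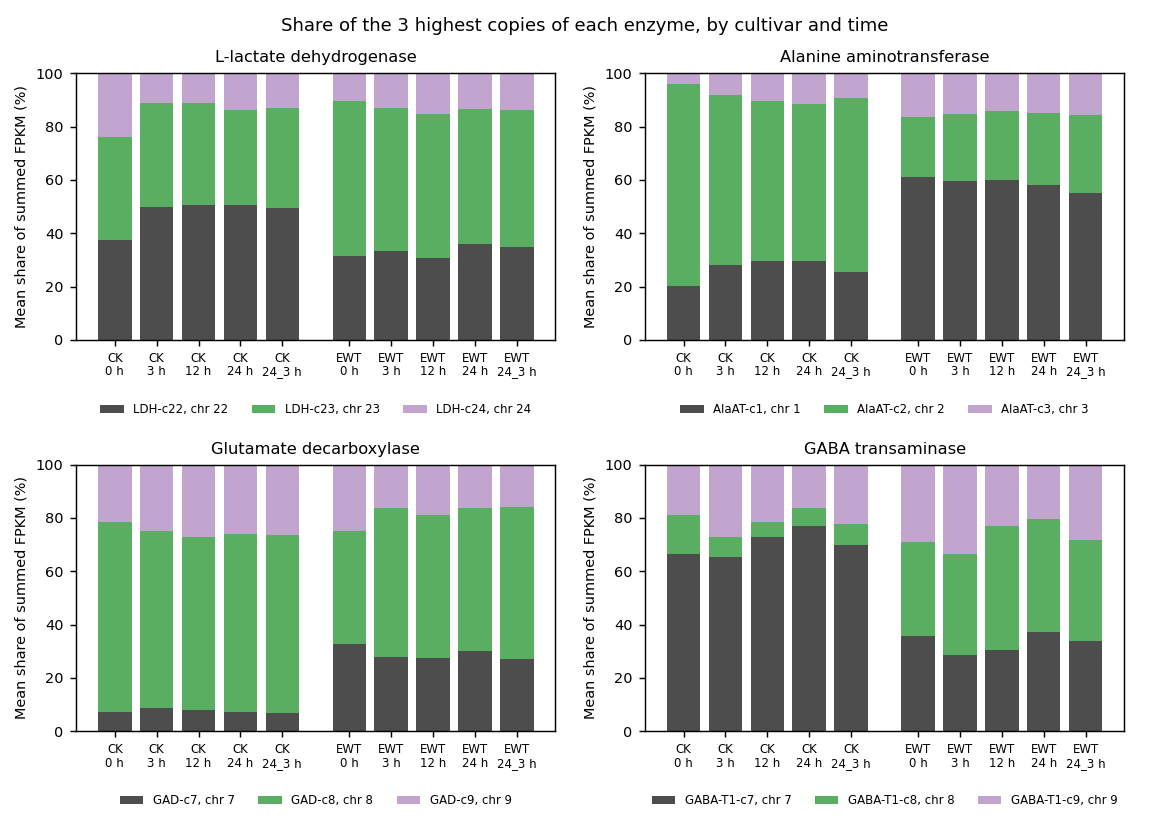
Stacked bars give the mean share (percent, n = 4 libraries) of each of the 3 highest copies in their summed FPKM, for LDH, AlaAT, GAD and GABA-T, by cultivar and time. AlaAT-c2 and GABA-T1-c7 take more of the bars in CK, and AlaAT-c1 and GABA-T1-c8 more in EWT.

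Other genes of these pathways were counted by name at 12 h, when 18.4% of all tested genes were called higher and 27.1% lower in CK, and 20.2% and 26.5% in EWT. Of 26 tested pyruvate decarboxylase genes, which open the ethanol branch, 18 were called higher and 1 lower at 12 h in CK and 21 higher in EWT, with median log2 changes of 6.46 and 5.04. Of 20 glutamate dehydrogenase genes, which release or bind ammonium at glutamate, 6 rose in CK, and 9 rose and 1 fell in EWT. Of 21 genes named alanine or glutamate glyoxylate aminotransferase, 11 rose and 6 fell in CK and 11 rose and 3 fell in EWT, with medians of 1.74 and 3.05. Of 12 genes named succinate-semialdehyde dehydrogenase, 4 rose and 6 fell in CK and 4 rose and 5 fell in EWT. By name this list, before the filter, holds 16 mitochondrial genes, the step after GABA-T, and 6 genes of an acetylating enzyme. Of 12 genes named GABA transporter, 7 fell in CK and 8 in EWT, and limma called 0 higher in either. Their medians were -2.43 and -3.13. Of 7 D-lactate dehydrogenase genes, 2 rose and 2 fell in CK and 2 fell in EWT. Of 15 lactoylglutathione lyase genes, 4 rose and 5 fell in CK and 5 rose and 1 fell in EWT.

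Aspartate aminotransferase, glutamine synthetase and pyruvate dehydrogenase E1 genes were called in both directions, the first at close to those shares, with 5 of 29 higher and 9 lower, 2 of 15 higher and 6 lower, and 4 of 25 higher and 10 lower in CK at 12 h. In EWT the counts were 7 and 8, 2 and 6, and 2 and 9. The name glutamate synthase found 34 tested genes, of which 10 rose and 12 fell in CK and 11 rose and 6 fell in EWT, but 22 of its 41 genes are folylpolyglutamate synthases. The calmodulin list, 42 tested genes of which 11 rose and 11 fell in CK and 11 rose and 8 fell in EWT, holds mostly NAD kinase and interacting proteins. Of 10 genes named non-symbiotic hemoglobin 2, 8 were called higher in CK and 7 in EWT. Of 25 sucrose synthase genes, 11 were called higher and 7 lower in CK, and 11 higher and 4 lower in EWT.

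The genes whose pattern over the 10 group means was most like that of the highest member of each class were listed as a description. For LDH-c23 the 3 most alike had Pearson's r of 0.994 to 0.996 on log2(FPKM + 0.1), and the only one with a protein name was evm_TU_scaffold_831_229, dirigent protein 6. For AlaAT-c2 it was evm_TU_scaffold_1189_51, named N-terminal acetyltransferase B complex catalytic subunit NAA20, with r = 0.980. For GAD-c8 it was evm_TU_scaffold_1371_676, named response regulator ARR6, with r = 0.976, and for GABA-T1-c7 a gene with no protein name, with r = 0.984. Each was selected as 1 of the 3 genes with the highest r among the 89517 tested genes, members left out, over 10 points.

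The scale of the library sizes bears on all changes with time. The deposited FPKM values use library sizes that offset shifts shared by most genes. With library sizes from all counted fragments instead, the median log2 change of all genes moved by -0.38 in CK and -0.49 in EWT at 12 h, by -0.36 in both at 24 h, by -0.13 in EWT at 3 h and by 0.31 in CK and 0.38 in EWT from 24 h to 24_3 h. The share of higher genes among those called went from 40.5% to 29.2% in CK and from 43.3% to 28.8% in EWT at 12 h, from 42.0% to 30.8% in EWT at 24 h, and from 51.5% to 73.8% in CK and 53.2% to 76.4% in EWT from 24 h to 24_3 h. None of the 234 called values of members turned its direction under this scale, whereas 15 values that were not called did, among them GAD-c7 and GAD-c9 in CK at 12 h (0.04 to -0.43 and 0.25 to -0.22) and GAD-c8 in EWT at 12 h (0.53 to -0.08). Under it AlaAT-c2 in CK (0.62), AlaAT-c3 in EWT (0.996) and GABA-T1-c9 in EWT (0.99) missed the 2-fold minimum at 12 h, and GABA-T1-c9 in CK (0.89) at 24 h.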

How the data were processed

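Roots of 2 chrysanthemum cultivars were profiled by RNA-seq in 40 libraries, 4 for each of 10 groups. The authors deposited FPKM values for 178540 genes in a single file. Per the submitters' processing notes, fastp, HISAT2 2.0.5 and featureCounts 1.5.0-p3 were used, and no genome build is named in the sources used here. The FPKM values times gene length gave whole fragments for 100% of the values checked (tolerance 0.01 fragments), and their library sizes follow size factors rather than the sum of fragments. No per-sample column was left unassigned.

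Groups came from the sample labels. The 89517 genes that reached an FPKM of 1 in 4 or more libraries were tested with limma 3.58.1 in R 4.3.3 on log2(FPKM + 0.1), with 1 mean for each group and an intensity trend, and p-values were adjusted by Benjamini-Hochberg over all tested genes. A call needed an adjusted p of at most 0.05 and a fold of at least 2. Sums, figures and bounds were made with Python 3.11.15, pandas 2.3.3 and matplotlib 3.10.9. Groups at 0 were set against 3 fragments over the group. The study's methods call the 4 libraries of a group biological replicates. The labels do not say whether each came from separate plants, so p-values measure the spread between libraries. The procedure was tested on simulated data. A difference that was not called is not shown to be absent.

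Genes named in each class were the 4 with the highest mean, the largest rise and fall at 12 h in each cultivar among called genes whose libraries do not overlap, and up to 3 each for the largest called cultivar differences in the change to 12 h or 24 h and at 0 h. Others were chosen after their values were seen. The members and lists were chosen with earlier results of these data known. Alternatives were pseudocounts of 1 and 0.01, no filter (148320 genes), a mean filter (57714 genes), library sizes from all fragments, a replicate block, only the groups compared, vooma weights, an unadjusted p, no fold minimum, and leaving out each library.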

Additional observations from a re-analysis of the deposited data

Results flagged for a closer look

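Single libraries that stood apart from the other 3 of their group were looked for in 200 group and measure pairs, and 16 were past the critical value, where chance gives about 1 in 20. In CK 24 h, replicate 3 stood apart for GAD-c7 (64.13 FPKM), GAD-c8 (729.6 FPKM), GAD-c9 (262.2 FPKM), LDH-c25 (92.49 FPKM) and the GAD sum (1059 FPKM), all high. Before flooding, low libraries were CK replicate 3 for GABA-T1-c8 (2.511 FPKM), CK replicate 1 for GAD-c9 (60.62 FPKM) and LDH-c22 (12.95 FPKM), and EWT replicate 4 for GAD-c7 (38.47 FPKM) and the LDH sum (25.92 FPKM). CK 0 h replicate 2 was high for evm_TU_scaffold_1501_200 (6.433 FPKM), and EWT 3 h replicate 4 was the only library of its group with a fragment of that gene (0.1088 FPKM). At 12 h, CK replicate 4 was low for AlaAT-c3b (12.24 FPKM), and EWT replicate 3 was high for GAD-c9 (44.95 FPKM) and GAD-c8 (111.3 FPKM). CK 24_3 h replicate 3 was high for the GABA-T sum (50.78 FPKM).

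The change with flooding differed between the cultivars, by limma's test of the difference itself (EWT change minus CK change, log2), in 14 cases. Over all tested genes 5.05% were called in this contrast at 3 h, 10.8% at 12 h and 12.0% at 24 h. At 3 h these were LDH-c24 (1.182), GAD-c8 (1.196) and an AlaAT gene on chromosome 5 (-2.493). At 12 h they were LDH-c22 (-1.069), AlaAT-c3 (-1.21), GABA-T1-c9 (-1.132) and GABA-T1-c8 (1.221). At 24 h they were LDH-c26 (-2.215), LDH-c27 (-3.279), AlaAT-c3 (-1.491), an AlaAT gene on chromosome 7 (3.607), GAD-c9 (-1.792), GABA-T1-c7 (-1.109) and GABA-T1-c9 (-1.293). LDH-c27 and the AlaAT gene on chromosome 5 passed the filter through CK, and each reached 1 FPKM in 3 EWT libraries. The value of LDH-c27, which had no fragment at 0 h, is its level difference at 24 h. So is that of the gene on chromosome 7, which was at 0 in all 20 CK libraries, passed the filter through 4 EWT libraries alone and rested on 10 fragments, so its size depends on the pseudocount. What lies behind these differences was not tested.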

How the results depend on the processing

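Of 2298 values of the 234 called member results under settings other than leaving out a library, 2180 kept their direction and side of the threshold and 118 kept only the direction. Over 1984 values with 1 library left out, the numbers were 1842 and 142. None turned its direction in either set. Counts of members called moved by over 1.5 times as follows. For EWT from 24 h to 24_3 h, 5 became 1 with a pseudocount of 1, 3 without a filter, with the mean filter, with library sizes from all fragments and with vooma weights, 2 with only the groups compared and 12 without the fold minimum. For CK in that step, 9 became 5 with library sizes from all fragments and 16 without the fold minimum. For the cultivar difference at 12 h, 4 became 9 with a pseudocount of 1, 11 by unadjusted p and 7 without the fold minimum. At 3 h, 3 became 1 with vooma weights, and from 24 h to 24_3 h, 0 became 2 by unadjusted p. With 1 library left out, counts against 0 h at 3, 12, 24 and 24_3 h ranged over 18 to 21, 18 to 20, 20 to 21 and 13 to 15 in CK, and 18 to 19, 17 to 19, 15 to 16 and 15 to 17 in EWT. From 24 h to 24_3 h they ranged over 6 to 12 in CK and 3 to 7 in EWT. For EWT against CK at the 5 times they were 10 to 13, 7 to 10, 12 to 14, 14 to 14 and 11 to 13, and for the cultivar differences 1 to 3, 4 to 6, 5 to 10 and 0 to 0. Equal replicate numbers did not pair the samples, since the correlation of same-numbered deviations ranged from -0.082 to 0.079. With the replicate number as a block, CK at 12 h had 19 members called, EWT from 24 h to 24_3 h 6 and the cultivar difference at 24 h 8, and the other counts were the same. Depth limits the copies under 1 FPKM, several of which rest on fewer than 10 fragments in a group.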
